A study of Homo sapiens with 2 samples.

Results

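This report describes the genes that move, bind and sense zinc, iron and copper in SW48 cells after knockdown of the transcription factor YY1. The members were taken by gene symbol from the array's annotation: the SLC30A and SLC39A transporter families, the metallothioneins MT1 (with 1 further letter) and MT2A, the zinc sensor MTF1, and named genes of iron and copper transport. SW48 is a long-established line from a human colorectal cancer. The rule found 43 genes among the 17687 named genes measured. MT1A and IREB2, which the rule also lists, were not analysed here. Cells of the siControl group received a negative control siRNA and cells of the siYY1 group an siRNA against YY1, each at 5 nmol/L with a lipid reagent, and RNA was taken after 3 days. Both groups are the same line in the same serum-containing medium, each group is 1 array, and the knockdown rests on 1 siRNA. The level of YY1 was not analysed here, so the strength of the knockdown was not checked.

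Zinc, iron and copper are needed by many enzymes and are toxic in excess, so cells balance uptake, storage and release. SLC39A (ZIP) proteins bring zinc into the cytosol from outside the cell or from organelles, and most SLC30A (ZnT) proteins take it out of the cytosol. Metallothioneins are small cysteine-rich proteins that bind zinc and copper, and MTF1 switches on their genes and SLC30A1 when zinc rises. Iron enters bound to transferrin through TFRC or as the free ion through SLC11A2 and leaves through SLC40A1 (ferroportin), while ACO1 doubles as the iron sensor IRP1. Copper enters through SLC31A1, is passed on by the chaperone ATOX1 and is pumped out by ATP7A and ATP7B. In the intestine, some of these genes serve the passage of metals between gut and blood as well as the epithelial cell itself.

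All values are deposited log2 values, and a difference is siYY1 minus siControl. Each group had a single array (n = 1), which leaves no replicate error and allows no test, so each difference describes these arrays only. A gene was kept when its mean over both arrays reached the median of all named genes (7.54), and a difference of at least 1.5-fold (0.58 on the log2 scale) was used as a rule of size. Levels of different genes were not compared, since each gene has its own probes.

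Of the 43 members, 34 were kept. Among these, 2 were at least 1.5-fold higher in siYY1, the zinc exporter gene SLC30A1 and the iron exporter gene SLC40A1, and 1 was at least 1.5-fold lower, the metallothionein gene MT1E. Over all 8844 genes kept, 3.04% passed the rule upwards and 3.78% downwards, 6.82% in all. The members' share of 8.82% (3 of 34) lay near that background and is no result about the set. The remaining 31 kept members were within 1.5-fold. Those nearest to the rule from inside were ATOX1 (-0.42) and SLC30A4 (-0.39), and from outside SLC30A1 (0.64) and MT1E (-0.73). In all, 16 kept members were higher and 18 lower, with a median difference of -0.019 against 0.0028 over all kept genes. By a looser rule of 0.32 on the log2 scale, 3 kept members were higher, with SLC39A10 added, and 4 were lower, with ATOX1, SLC30A4 and MT1H added. Over all kept genes that rule took 12.2% upwards and 13.5% downwards. None of the kept members reached 2-fold, which 0.373% of kept genes did upwards and 0.577% downwards.

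**Figure D1:**
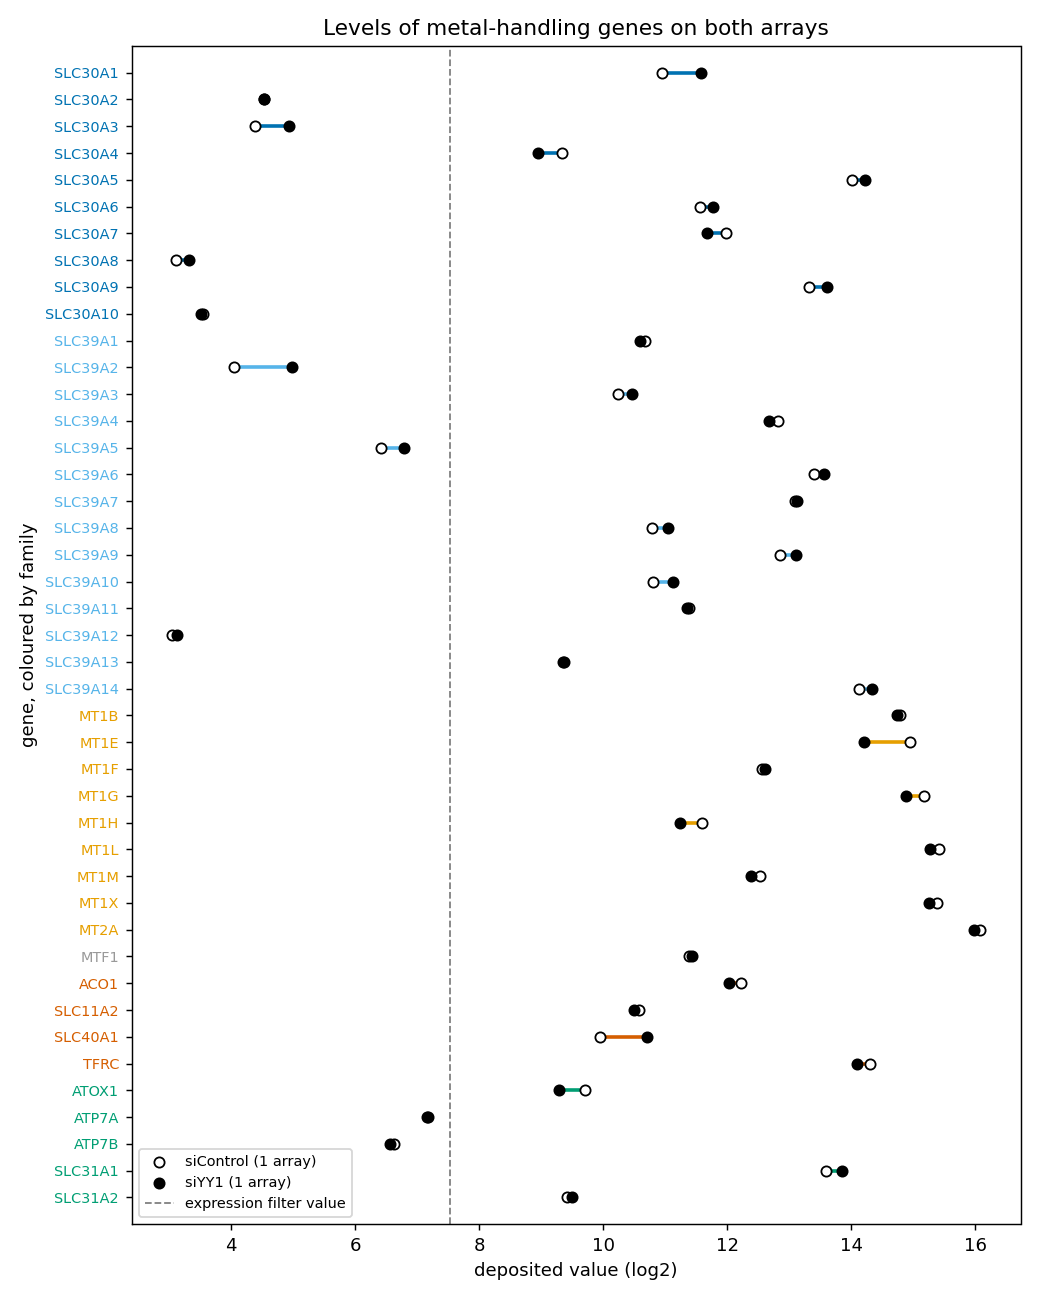
Deposited log2 values (x axis) of the 43 genes (y axis, coloured by family) in siControl (open circles) and siYY1 (filled circles), 1 array each, with the expression filter value of 7.54 as a dashed line. All 9 metallothionein genes lie above the line on both arrays, and SLC30A1, SLC40A1, MT1E and the dim SLC39A2 have the widest gaps.

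Among the SLC30A genes, SLC30A1 had the widest gap of those kept. SLC30A1 encodes the zinc transporter that releases zinc across the plasma membrane. Its value was 10.94 in siControl and 11.58 in siYY1, 1.56-fold higher. This placed it as number 201 from the top of the 8844 kept genes, in the upper 2.27%. The manganese exporter gene SLC30A10, the other family member that works mainly at the cell surface, was dim at 3.54 and 3.52.

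The transporters that load zinc into the secretory pathway went both ways, and none reached 1.5-fold. SLC30A5 was at 14.01 and 14.22, and SLC30A6 at 11.57 and 11.78. Their proteins work as a heterodimer that supplies zinc to secreted enzymes, and the differences were 0.21 for both genes. SLC30A7, which serves the same compartment as a homodimer, was lower, at 11.99 and 11.68 (difference -0.31). Also lower was SLC30A4, a transporter of endosomal and lysosomal vesicles, at 9.33 in siControl and 8.94 in siYY1. SLC30A9, which moves zinc out of mitochondria, was at 13.32 and 13.61 (difference 0.29). Of the 6 kept SLC30A genes, 4 were higher and 2 lower, with a median difference of 0.21. This count includes SLC30A9, which carries zinc into the cytosol. Of the 4 kept genes for vesicle loading, 2 were higher and 2 lower (median -0.052). Among all kept genes, 50.4% were higher and the median was 0.0028. The vesicle transporter genes SLC30A2, SLC30A3 and SLC30A8, known from mammary gland, synapses and insulin granules, were dim on both arrays. Of these, SLC30A3 differed by 0.54, SLC30A8 by 0.21, and SLC30A2 had the same value of 4.53 on both arrays to 2 decimals. Whether probes this dim exceeded background was not tested.

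The zinc importers of the SLC39A family had small differences, 7 of 11 kept genes being higher (50.4% of all kept genes were) and none past 1.5-fold. Their median difference was 0.17. Of the 7 kept members that work mainly at the plasma membrane, 5 were higher (median 0.21). SLC39A10 had the largest of these differences, from 10.80 in siControl to 11.12 in siYY1 (0.33). SLC39A6, whose protein pairs with SLC39A10, was at 13.40 and 13.57 (0.17). SLC39A8 and SLC39A14, which also carry manganese and iron, differed by 0.26 and 0.21, and SLC39A3 by 0.23. SLC39A4, the importer through which the gut takes up dietary zinc, was slightly lower, at 12.81 and 12.68 (-0.14). SLC39A1 was at 10.67 and 10.59 (-0.08).

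Of the SLC39A genes whose proteins sit mainly in organelles, SLC39A9 of the Golgi was the one with a visible gap, at 12.85 and 13.11 (0.26). SLC39A7, which releases zinc from the endoplasmic reticulum, differed by 0.04, SLC39A13 by -0.015 and SLC39A11 by -0.023. SLC39A2, SLC39A5 and SLC39A12 were under the filter. SLC39A2 went from 4.04 to 4.99, a difference of 0.95 and the widest of all 43 members. Both of its values lie well under the filter, where 4.92% of the 8843 named genes under the filter were at least 1.5-fold higher, and the size of this difference is uncertain. SLC39A5, an importer of the basolateral membrane, differed by 0.37 (6.42 and 6.79), and SLC39A12, an importer known from the brain, by 0.072.

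**Figure D2:**
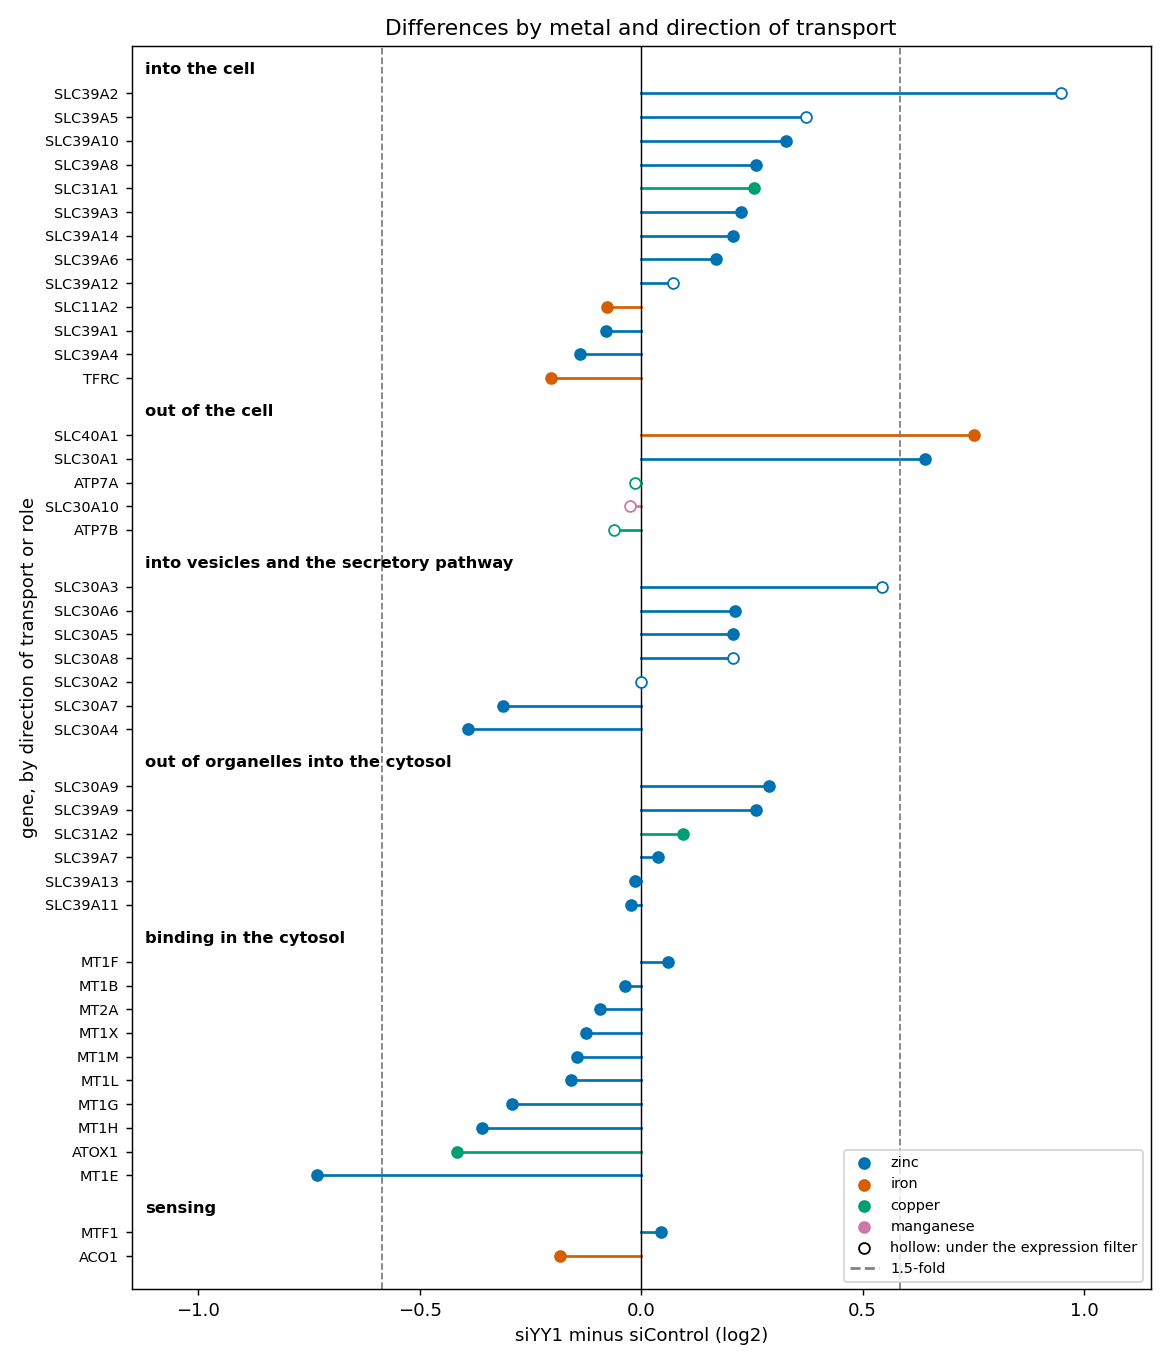
Difference of each gene (x axis, siYY1 minus siControl, log2), grouped on the y axis by direction of transport or role and coloured by metal, with 1.5-fold as dashed lines and genes under the expression filter as hollow circles. SLC40A1 (0.75) and SLC30A1 (0.64) stand past the line among genes that carry metal out of the cell, while 9 of 10 binding proteins lie below 0. Among all kept genes 49.6% lie below 0, and the metallothioneins in this group may not be separate measurements.

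All 9 metallothionein genes were kept, and 8 of them were lower in siYY1. Most of the gaps were small. The median difference was -0.14, where 49.6% of all kept genes were below 0. MT1E was at 14.95 in siControl and 14.21 in siYY1, 1.66-fold lower. It was number 168 from the bottom of the kept genes, in the lowest 1.90%. Bright probes scattered less than dim ones. With the kept genes divided by level into 4 parts of 2211 (a division chosen after the values were seen), 1.13% of its own part were as far down as MT1E. The corresponding shares in the upward direction were 1.85% for SLC30A1 and 1.36% for SLC40A1.

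Next in size was MT1H, at 11.60 and 11.24 (-0.36), followed by MT1G at 15.17 and 14.88 (-0.29). MT1L, listed as a transcribed pseudogene, was at 15.42 and 15.26, MT1M at 12.53 and 12.38, and MT1X at 15.38 and 15.26. MT2A, usually an abundant form, was at 16.08 in siControl and 15.99 in siYY1. The siControl value lies above 16, the most a 16-bit scanner can give on the log2 scale before processing. Deposited values reach 17.97, so 16 is no ceiling on their scale. Whether this probe set was compressed was not tested, and the size of its difference (-0.093) may be affected. MT1B (14.78 and 14.75) and MT1F (12.56 and 12.62) differed least, and MT1F was the exception in sign.

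These genes lie side by side on chromosome 16 and are close copies of each other. Their probes may not separate them, so the 9 values may not be separate measurements and a count of signs over them says less than it would for unlike genes. Within the cluster MT1E, with the widest gap, stands between MT1L (-0.16) and MT1M (-0.14). Other neighbours were more alike. MT1G (-0.29) and MT1H (-0.36), next in size, lie side by side, as do MT1B (-0.04) and MT1F (0.06), which differed least. The adjacent MT1F and MT1G were less alike than these pairs, as were MT1H and MT1X (-0.12). MTF1, which binds the promoters of metallothionein genes and of SLC30A1, was at 11.39 and 11.44, a difference of 0.04.

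**Figure D3:**
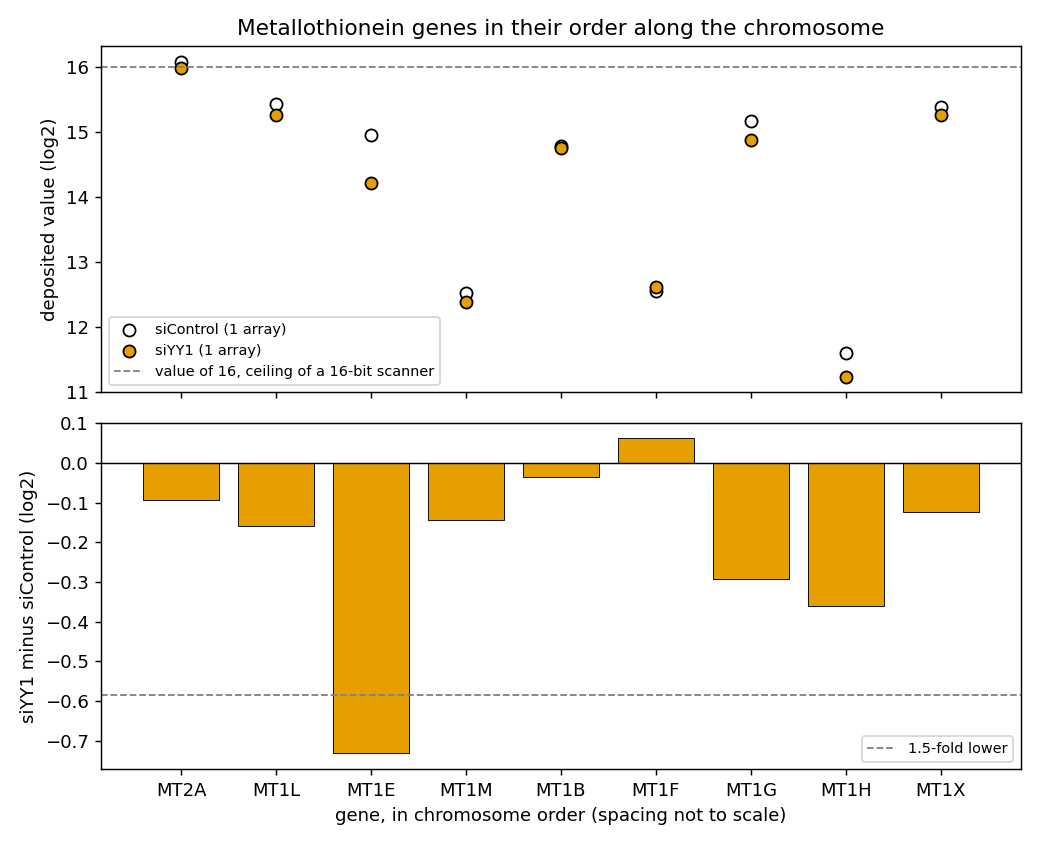
Metallothionein genes in chromosome order (x axis, spacing not to scale). The upper panel gives the deposited log2 value in siControl (open) and siYY1 (filled), 1 array each, with 16 as a dashed line, and the lower panel gives siYY1 minus siControl (log2), with 1.5-fold lower as a dashed line. MT1E alone passes the line at -0.73, and MT1F alone is above 0 (0.06).

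MTF1 acts through short metal response elements, and SLC30A1 and the metallothioneins are its textbook targets. The promoters of SLC30A1, MT2A and MT1X are shown for that reason. The promoter of SLC40A1 is shown beside them as the other exporter gene past 1.5-fold. Each sequence is the 250 bases before the transcript start, from RefSeq on GRCh38.p14, 5′ to 3′ on the gene's strand. Capitals mark the core TGCACNC or TGCGCNC on either strand, and overlapping matches were all counted.
SLC30A1 (chr1:211579162-211579411, minus strand): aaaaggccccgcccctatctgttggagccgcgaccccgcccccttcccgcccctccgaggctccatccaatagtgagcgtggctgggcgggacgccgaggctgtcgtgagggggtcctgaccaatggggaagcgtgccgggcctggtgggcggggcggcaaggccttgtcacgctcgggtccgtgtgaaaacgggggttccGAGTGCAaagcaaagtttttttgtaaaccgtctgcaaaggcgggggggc
SLC40A1 (chr2:189580787-189581036, minus strand): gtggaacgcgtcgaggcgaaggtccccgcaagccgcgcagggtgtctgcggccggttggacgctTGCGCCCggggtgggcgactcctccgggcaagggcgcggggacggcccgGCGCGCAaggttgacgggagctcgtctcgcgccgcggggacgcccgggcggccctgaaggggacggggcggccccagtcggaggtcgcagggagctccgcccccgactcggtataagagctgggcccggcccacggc
MT2A (chr16:56608334-56608583, plus strand): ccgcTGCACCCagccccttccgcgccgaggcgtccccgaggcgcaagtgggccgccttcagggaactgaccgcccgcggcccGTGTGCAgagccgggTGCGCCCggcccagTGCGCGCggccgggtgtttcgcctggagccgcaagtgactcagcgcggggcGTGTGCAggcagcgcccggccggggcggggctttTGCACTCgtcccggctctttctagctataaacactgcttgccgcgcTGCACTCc
MT1X (chr16:56682220-56682469, plus strand): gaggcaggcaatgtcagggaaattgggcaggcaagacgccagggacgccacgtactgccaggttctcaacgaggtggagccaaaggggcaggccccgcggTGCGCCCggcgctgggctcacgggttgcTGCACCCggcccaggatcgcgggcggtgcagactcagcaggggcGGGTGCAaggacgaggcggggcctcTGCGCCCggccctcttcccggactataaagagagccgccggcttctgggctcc
MT2A holds 7 matches in this stretch, MT1X 4, SLC40A1 2 and SLC30A1 1.

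A promoter window of 300 bases (250 before and 50 after a start) was searched for 34 of the 43 members, some with several starts, 48 windows in all. The metal response core was found in 22 of the 48 (45.8%) and in 29.6% of all 35116 RefSeq windows of that length. It was in the 4 metallothionein windows matched (MT2A, MT1B, MT1H and MT1X), in 6 of 11 SLC30A windows, 7 of 19 SLC39A windows, 2 of 7 iron gene windows and 3 of 6 copper gene windows. No window was matched for MT1E, MT1F, MT1G, MT1L, MT1M or SLC31A2. Member windows on the chromosome of SLC30A8, SLC39A4 and SLC39A14 were left out of the search, so these genes are not covered. The windows of all genes kept that chromosome, so the shares of members and of all windows rest on unlike sets. A core of the YY1 motif, GCCATNTT on either strand, was found in 2 of the 48 windows (4.17%) and in 6.58% of all windows. The windows that held it belong to SLC39A7 (difference 0.04) and SLC39A9 (0.26). These matches describe letters in the windows, and binding was not measured.

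Among the iron genes, the exporter stood out and the uptake genes hardly differed. SLC40A1, the exporter of free iron from cells, was at 9.95 in siControl and 10.70 in siYY1, 1.68-fold higher. This made it number 110 from the top of the kept genes, in the upper 1.24%, and the largest difference among the kept members. TFRC, the transferrin receptor, was at 14.30 and 14.09 (-0.20). SLC11A2, the importer of ferrous iron in the gut and in endosomes, was at 10.57 and 10.49 (-0.077). ACO1 was at 12.22 and 12.04 (-0.18). All 4 genes were kept, 3 of them lower and SLC40A1 higher, and their median was -0.13.

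A wider list of iron genes held 23 symbols, of which 20 were measured and 16 kept. At 1.5-fold, 1 of the 16 was higher and 0 lower, beside 3.04% and 3.78% of all kept genes, and the median difference was 0.03. SLC39A8 and SLC39A14, members described above, are on this list too, and its STEAP genes are also on the wider copper list. The gene past 1.5-fold was FLVCR1, a transporter of heme and choline, at 10.31 in siControl and 11.05 in siYY1 (0.74). SLC48A1, which carries heme out of endosomes and lysosomes, was next at 0.27. The lowest were SLC25A37, the mitochondrial iron importer mitoferrin, at 10.49 and 10.07 (-0.42), and HFE, a partner of the transferrin receptor, at 8.24 and 7.86 (-0.39). The ferritin light chain gene FTL, named after its value was seen, was at 13.73 and 13.65.

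The copper genes showed no gap past 1.5-fold. SLC31A1, the high-affinity copper importer, was at 13.59 and 13.85 (0.25). Its neighbour and paralog SLC31A2, which has a part in copper release from endosomes, was at 9.41 and 9.50 (0.09). ATOX1, the chaperone that hands copper to the export pumps, was lower, at 9.71 and 9.29, a 1.34-fold gap. The pump genes ATP7A (7.17 and 7.16) and ATP7B (6.63 and 6.56) were under the filter on both arrays, with differences of -0.015 and -0.062. Of a wider list of 16 copper genes, 14 were measured and 10 kept, with 0 past 1.5-fold in either direction and a median of -0.07, which was 0.049 over all 14. CUTC, a copper-binding protein, was lowest at 8.93 and 8.39 (-0.53), followed by MEMO1 (-0.25). Highest were SOD1, the copper and zinc superoxide dismutase, at 0.24, and the metalloreductase gene STEAP2 at 0.18.

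In a further list of 8 zinc and manganese genes, 5 were kept and 0 passed 1.5-fold (median -0.07, or 0.014 over all 8). TMEM165, a manganese and calcium transporter of the Golgi, was highest at 11.52 and 11.90 (0.38), followed by the Golgi pump ATP2C1 (0.10). The lowest were the zinc-sensing receptor gene GPR39 and ATP13A1, a pump of the endoplasmic reticulum, each at -0.25.

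Set out by direction over all metals, the 2 kept genes for release from the cell, SLC30A1 and SLC40A1, were both past 1.5-fold, as were 3.04% of all kept genes in that direction. The other 3 genes for release, ATP7A, ATP7B and SLC30A10, were dim and each differed by less than 0.1. Over all 5 genes for release the median was -0.015, so the pair does not stand for the group. For entry into the cell, 6 of 10 kept genes were higher (50.4% of all kept genes were), 0 past 1.5-fold, with a median of 0.19. The lower ones were TFRC, SLC11A2 and the zinc importer genes SLC39A1 and SLC39A4. For loading of vesicles and the secretory pathway the median of 4 kept genes was -0.052, but over all 7 genes, 3 of them dim, it was 0.208. For release from organelles the median of 6 kept genes was 0.065. Genes whose proteins bind metal in the cytosol, the metallothioneins and ATOX1, were lower in 9 of 10 cases (median -0.15). Among all kept genes, 49.6% were lower. All of these genes but ATOX1 are metallothioneins, which may not be separate measurements, so this count says less than it would for unlike genes.

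**Figure D4:**
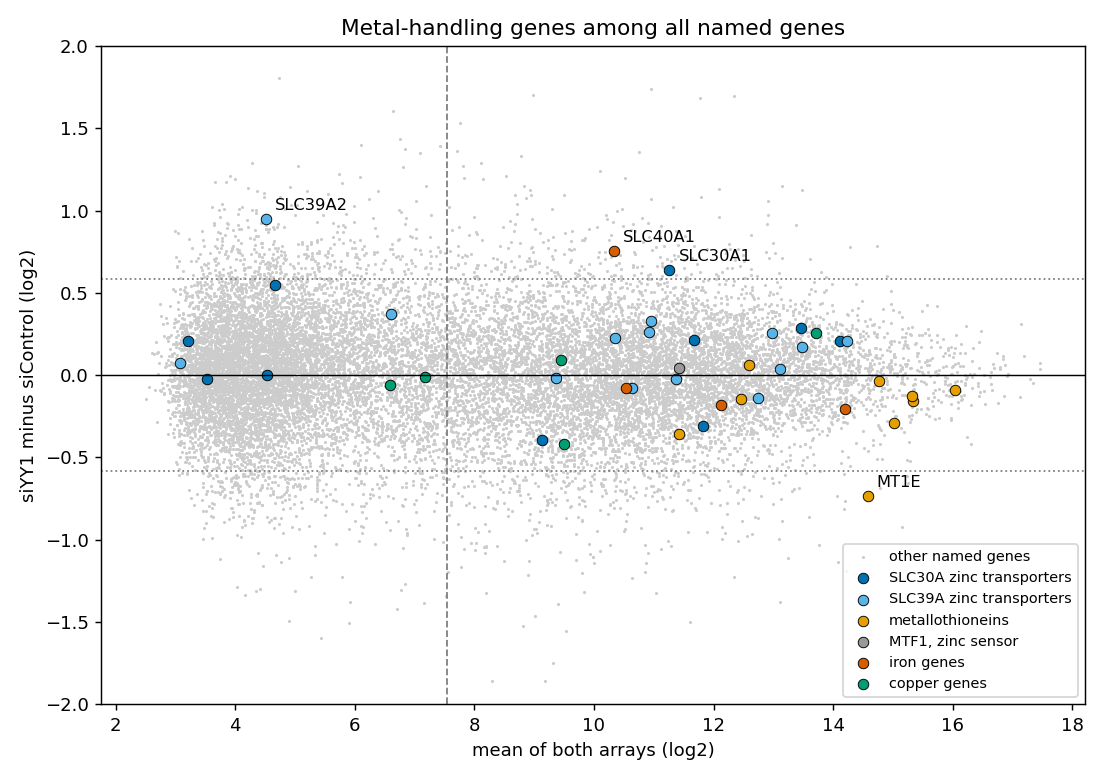
Difference (y axis, siYY1 minus siControl, log2) against the mean of both arrays (x axis, log2) for the metal-handling genes (coloured by family) and all other named genes (grey), with the expression filter as a dashed vertical line and 1.5-fold as dotted lines. SLC40A1, SLC30A1 and MT1E lie past the 1.5-fold lines in the outer part of the grey cloud, with other genes at their level further out. The other kept members lie within 1.5-fold, and 3 other genes lie beyond the y axis.

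The cell type label was checked against marker genes. Of 11 colon epithelium markers measured, 8 were kept, namely EPCAM, KRT8, KRT18, KRT19, CDH1, CDH17, CDX2 and CEACAM5, while CDX1, VIL1 and LGALS4 were dim on both arrays. CEACAM5 was past 1.5-fold, at 13.80 and 12.42, and KRT19 differed by -0.34. Markers of endothelium (0 of 6 kept), erythroid cells (0 of 5) and hepatocytes (0 of 8) were dim. For leukocytes, which include the iron-recycling macrophages rich in SLC40A1, 2 of 12 markers were kept and the median level was 5.14 in siControl and 5.27 in siYY1. Over the 12 markers 9 were higher in siYY1 and 3 lower, but 10 of the 12 were under the filter. The kept ones were CD68, which was lower, and CD79A (7.72 and 7.77). Past 1.5-fold were LYZ (5.37 and 6.35) and CD2 (3.12 and 3.76), both dim, and the kept CD68 (8.72 and 7.64). Both samples are labelled as the SW48 line. Whether they held any leukocytes was not tested, nor was a part of such cells in the SLC40A1 difference. For fibroblasts 2 of 8 were kept, with medians of 4.77 and 4.65. The reference genes ACTB and GAPDH differed by 0.11 and -0.03, GAPDH lying above 16 on both arrays.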

How the data were processed

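RNA was hybridised to GeneChip arrays of the whole-transcript kind, 1 per group, as named in the sample titles. The authors deposited 1 summarized log2 value per probe set. The log2 unit was read from the values (2.32 to 17.97), since the log base and the steps before deposit (software, background correction, normalization) are not stated in the labels used here. Sorted by size, the values of both arrays lay within 0.153 of each other, and whether they had been normalized to each other is not known. Folds take the values as plain log2. Of 21448 probe sets, 17709 had 1 gene symbol in the platform annotation, 3739 had none and no probe set had several. Each member had 1 probe set, and all 43 matched RefSeq (GRCh38.p14) by Entrez identifier without a change of symbol. In the whole table, 20 genes had several probe sets, which were averaged.

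The members, lists, rules of size and alternatives were chosen with earlier results of these data known. Every member was to be named, with up to 2 kept genes at each end of each wider list and those past 1.5-fold. Precision is limited by the number of arrays. Alternatives were thresholds of 0.32 (log2) and 2-fold, no filter, a filter at the 60th percentile or on both arrays, quantile normalization, median centring, lowess centring (fraction 0.3) and the brightest probe set of a gene. The steps were tested on simulated data with less noise than these arrays and larger changes than any kept member showed. That run checked the steps only and does not show how the 1.5-fold rule performs at the scatter seen here. Python 3.11.15, numpy 2.4.6, pandas 2.3.3, statsmodels 0.14.6 and matplotlib 3.10.9 were used.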

Additional observations from a re-analysis of the deposited data

How the results depend on the processing

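With 1 array per group no replicate could be left out. No paired analysis was possible because each group held 1 sample and the result comes from no test. The counts at 1.5-fold (2 higher, 1 lower) were the same under quantile normalization, median centring, lowess centring, the brightest probe set, the filter at the 60th percentile and the filter on both arrays. Without a filter the count of higher genes was 3, SLC39A2 being added. At a threshold of 0.32 (log2), 3 kept members were higher and 4 lower, and at 2-fold 0 were higher and 0 lower. The median of the copper genes went from 0.09 to -0.015 without a filter, as ATP7A and ATP7B were added. The medians of the SLC30A, SLC39A, metallothionein and iron families moved by less than 0.1 under each alternative. Medians by direction and of the wider lists were recomputed in the same way, a choice made after seeing the data. Without a filter, the median for vesicle loading went from -0.052 to 0.208 and that for release from the cell from 0.70 to -0.015, a change of sign in both. The wider copper list went from -0.07 to 0.049 without a filter and to 0.052 at the 60th percentile, and the wider iron list from 0.03 to 0.153 at the 60th percentile. No single member moved by more than 0.034 under the alternatives that change values. Whether genes under the filter exceeded background was not tested, and probe sets near or above 16 may be compressed.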
